A study of Mus musculus with 5 samples.

Results

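Lipid carriage and its control were examined in astrocytes of the amygdala (basolateral, per the design text) through 10 genes. The genes are the apolipoproteins Apoe and Apod, the cholesterol-esterifying enzyme gene Lcat, the efflux transporters Abca1 and Abcg1, the receptor Lrp1, the liver X receptors Nr1h2 and Nr1h3, and the fatty acid binding proteins Fabp5 and Fabp7. They were chosen by symbol, and all 10 were found among the 35976 genes of the count table. The libraries came from CCR2-DTR mice of genotype Ccr2::CreERT2/+;DTR/+, in which a Cre recombinase that needs tamoxifen is expressed from the Ccr2 locus and switches on a diphtheria toxin receptor. The 3 DTx-labelled libraries (5A, 6A and 7A) are from mice given tamoxifen and DTx, and the 2 saline libraries (replicates 1 and 2) are from mice given tamoxifen and saline. Every mouse went through 18 days of tube restraint, then fear conditioning and extinction, so no unstressed mice and no mice lacking the receptor transgene enter the comparison, which asks how depletion of CCR2+ monocytes under stress alters the astrocytes. Cells were dissociated from the amygdala with papain and taken on anti-ACSA-2 beads, and age is not given in the sources used here. The design text counts 3 saline animals, of which 2 are analysed here.

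In the brain, apolipoprotein E is secreted mainly by astrocytes and carries cholesterol and phospholipid in particles resembling high-density lipoprotein. ABCA1 and ABCG1 load lipid onto these particles, LCAT esterifies their cholesterol, and receptors of the LDL receptor family such as LRP1 take the particles up. The liver X receptors, nuclear receptors that bind oxysterols as partners of the retinoid X receptors, induce Abca1, Abcg1 and Apoe when cells hold excess cholesterol. Apolipoprotein D is a lipocalin that binds small hydrophobic molecules such as arachidonic acid, and FABP5 and FABP7 carry fatty acids inside the cell.

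Several facts of the libraries bear on every comparison. Total counts were 15961220 to 18708138 in the DTx-labelled libraries, and 20577672 and 23720299 in the saline libraries. Ccr2 had 54, 4 and 4 counts in 5A, 6A and 7A (DTx-labelled), against 0 and 0 in saline, in cells selected as astrocytes. This is the reverse of what depletion would give, so all directions are those of the labels. Ddx3y, a Y-linked gene, had 1865 to 2365 counts in the DTx-labelled libraries against 4 and 1 in saline, and Xist, expressed from the inactive X chromosome, had 0 to 3 counts against 3739 and 2876. Sex-chromosome state and treatment therefore cannot be told apart. Astrocyte markers summed to 30310, 33784 and 30308 CPM (read counts scaled by library total and the TMM method) in 5A, 6A and 7A (DTx-labelled), against 29808 and 30249 CPM in saline replicates 1 and 2. Markers of other cells were also present: oligodendrocyte markers summed to 43338, 44608 and 91300.3 CPM in 5A, 6A and 7A (DTx-labelled), against 60914 and 93611 CPM in saline. Microglia and macrophage markers summed to 694, 486 and 401 CPM in the same DTx libraries, against 169 and 397 CPM in saline, and none of the 20 was at 0 in all libraries. Neuron markers summed to 390, 492 and 473 CPM in 5A, 6A and 7A (DTx-labelled), against 362 and 321 CPM in saline replicates 1 and 2. Ependyma and choroid plexus markers summed to 226, 137 and 47.5 CPM in those DTx libraries, against 248 and 38.5 CPM in saline. In these bulk samples, fewer cells of a type and less RNA per cell cannot be told apart.

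Promoters are shown for Abca1, the classical liver X receptor target among the genes and the member whose groups did not overlap, and for Apod and Fabp7, the members whose levels varied most between libraries. The sequences are 300-base windows, 250 bases before to 50 bases after the annotated start, from RefSeq (build GRCm38.p6), and 8 of the 10 genes matched the table. Each is written 5′ to 3′ on the strand of the gene. In Abca1 (chr4:53159846-53160145, minus strand) the capitals mark a match to the liver X receptor direct repeat and the TATAAA box. In Fabp7 (chr10:57784673-57784972, plus strand) they mark CCAAT boxes read on the opposite strand. In Apod (chr16:31314759-31315058, minus strand) nothing is capitalised.
Abca1: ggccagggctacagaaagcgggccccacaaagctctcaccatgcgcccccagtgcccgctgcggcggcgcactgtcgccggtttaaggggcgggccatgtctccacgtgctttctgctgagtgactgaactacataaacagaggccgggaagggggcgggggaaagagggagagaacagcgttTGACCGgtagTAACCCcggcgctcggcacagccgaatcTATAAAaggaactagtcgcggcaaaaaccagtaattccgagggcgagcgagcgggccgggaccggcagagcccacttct
Apod: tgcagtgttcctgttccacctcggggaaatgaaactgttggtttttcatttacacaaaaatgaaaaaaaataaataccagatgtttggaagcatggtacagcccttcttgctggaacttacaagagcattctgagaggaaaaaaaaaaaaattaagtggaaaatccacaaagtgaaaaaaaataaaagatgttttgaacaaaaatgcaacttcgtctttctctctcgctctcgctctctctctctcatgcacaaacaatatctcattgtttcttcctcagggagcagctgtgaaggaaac
Fabp7: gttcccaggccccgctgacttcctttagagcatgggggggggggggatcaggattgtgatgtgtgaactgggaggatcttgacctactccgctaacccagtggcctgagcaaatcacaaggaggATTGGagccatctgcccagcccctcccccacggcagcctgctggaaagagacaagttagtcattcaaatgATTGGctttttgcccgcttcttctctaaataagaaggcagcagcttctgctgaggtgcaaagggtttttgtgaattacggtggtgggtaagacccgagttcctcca
The repeat searched was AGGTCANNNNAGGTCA on both strands, with up to 3 mismatches in its 12 fixed letters, a limit chosen after the Abca1 window had been read. The Abca1 match lay 67 to 52 bases before the start and reads GGGTTActacCGGTCA on the opposite strand, with 3 mismatches. Of all 32851 promoter windows, 21.9% held a match this loose and 3.02% held one with up to 2 mismatches, so such a match is common. Lcat and Fabp7 also had a match with 3 mismatches, and no window of the members had a closer one. Abcg1 and Fabp5 had no window and were not searched for any of these letters. Single AGGTCA units were searched too, and Fabp7 held such a unit, next to but not overlapping its repeat match, against 16.3% of all windows. TATAAA occurred in Abca1 and in the window of another annotated start of Apoe, where both strands match and overlap, against 13.6% of windows, CCAAT in Lcat and Fabp7, against 37.4%, and GGGCGG in Abca1 and Lrp1, against 35.7%. None of the letters searched lay in the Apod window, which holds a run of CT repeats shortly before the start. These are matches of letters, and the libraries carry no measure of binding.

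No member passed the test of DTx-labelled against saline libraries, 0 of 10. By edgeR's quasi-likelihood test and Benjamini-Hochberg adjustment over 15532 genes, 0.0322% of all genes passed an adjusted p of 0.05, all of them sex-linked, and the smallest adjusted p of a member was 0.797 (Abcg1). DESeq2 and limma-voom called 0 members as well, beside 0.729% and 0.0322% of all genes, and 0 members had an unadjusted p under 0.05, against 6.28% of all genes tested. The log2 fold change, DTx-labelled over saline, was positive for 5 members and negative for 5, with a median of -0.01 beside 0.00 for all genes tested. The median size of the change, sign ignored, was 0.24 for the members and 0.21 for all genes. The groups did not overlap for 1 member with the DTx-labelled libraries higher, Abca1, where 12.1% of all genes behaved so, and for 0 members with them lower, against 8.98% of genes. With RLE or total-count scaling 2 members did not overlap, but the share of all genes was not computed under these scalings, so the rise cannot be judged.

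**Figure D1:**
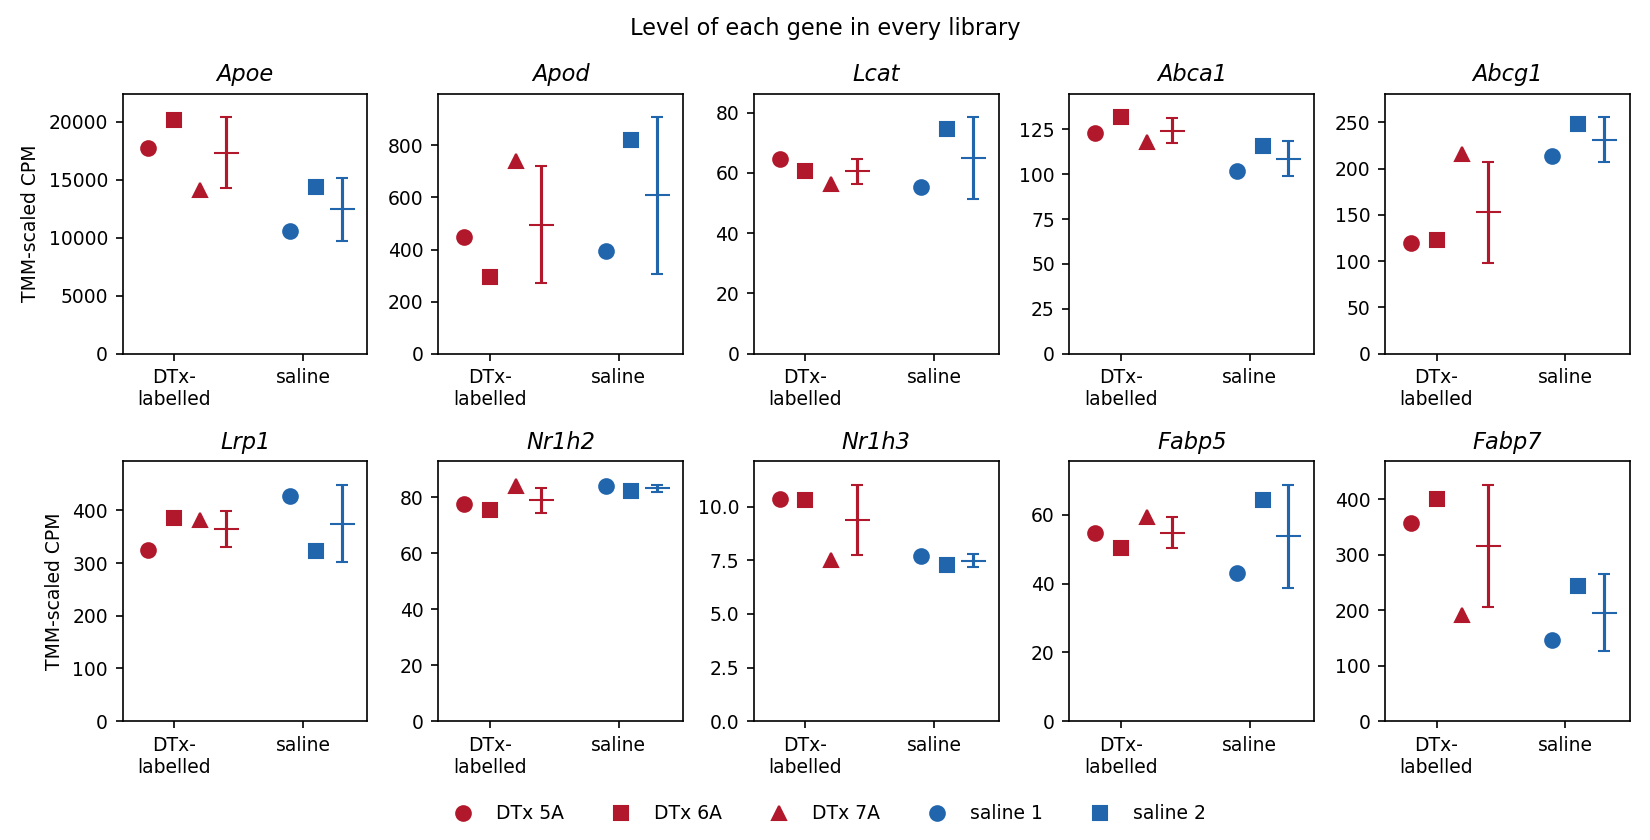
Level of each of the 10 genes (vertical axes, TMM-scaled CPM from 0) in the 3 DTx-labelled libraries (red, left) and the 2 saline libraries (blue, right), with group mean and SD beside the points. Abca1 is the panel in which the groups do not overlap, and in the Abcg1 panel DTx libraries 5A and 6A lie at 119 and 123 CPM while library 7A, at 216 CPM, lies between the saline libraries.

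Apoe (chromosome 7, 19696244 to 19701310) was the most abundant member by far. Its level was 17757, 20187 and 14106 CPM in 5A, 6A and 7A (DTx-labelled), against 10557 and 14379.5 CPM in saline replicates 1 and 2. The groups overlapped, since library 7A lay just under saline replicate 2, while saline replicate 1 was the lowest of the 5. This gave a log2 fold change of 0.48 ± 0.26 (SE), a ratio of 1.39 with a 95% interval of 0.899 to 2.15 (edgeR adjusted p = 0.797). Without saline replicate 1 the log2 fold change was 0.27, and without saline replicate 2 it was 0.72, so either saline library moved it. Apoe reads made up 1.89%, 2.04% and 1.32% of all counts in the DTx-labelled libraries, against 1.11% and 1.35% in saline. Divided by exon length, Apoe ranked 1 in each of the 5 libraries among 26705 genes with a known length, which did not include the mitochondrial genes. By raw counts it ranked 3 to 4 in the DTx-labelled libraries and 4 to 5 in saline. The mean log2 CPM of the microglia and macrophage markers was 4.57, 3.88 and 3.73 in 5A, 6A and 7A (DTx-labelled), against 2.39 and 3.66 in saline. With this mean as a covariate the log2 fold change of Apoe was 0.19 ± 0.385 (SE). With the mean of the oligodendrocyte markers as the covariate instead it was 0.34 ± 0.30. Each covariate adds a term estimated from the same 5 libraries, which leaves few degrees of freedom. The microglia mean was also higher in every DTx-labelled library than in either saline library. Here and for the genes below, these fits therefore cannot separate marker content from group.

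Apod (chromosome 16, 31296192 to 31314808), which encodes a lipocalin secreted by glia including oligodendrocytes, varied most between libraries of the same group. It stood at 449, 296 and 739.7 CPM in 5A, 6A and 7A (DTx-labelled), against 395 and 820.2 CPM in saline replicates 1 and 2. Library 7A and saline replicate 2 were high and the other 3 low, so the groups overlapped throughout. Between groups the log2 fold change was -0.30 ± 0.46 (SE), with an interval of -1.42 to 0.82 (edgeR adjusted p = 0.912). The oligodendrocyte marker Mobp was at 5206, 5068 and 9188 CPM in the same DTx libraries, against 4820 and 9888 CPM in saline, and so was also high in library 7A and saline replicate 2. With the mean of the oligodendrocyte markers as a covariate the log2 fold change of Apod turned to 0.37 ± 0.30 (SE), and without saline replicate 2 to 0.33. With the microglia covariate it was -0.61 ± 0.65.

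Lcat (chromosome 8, 105939551 to 105943402), whose enzyme esterifies cholesterol on apolipoprotein E particles, was at 64.7, 60.8 and 56.3 CPM in 5A, 6A and 7A (DTx-labelled), against 55.3 and 74.5 CPM in saline. Its 3 DTx-labelled values lay between the 2 saline values. Lcat had a log2 fold change of -0.10 ± 0.17 (SE), and the 95% interval of the ratio was 0.705 to 1.24 (edgeR adjusted p = 0.919). The log2 fold change was -0.30 without saline replicate 1, and its sign turned without saline replicate 2 (0.13). The value was -0.39 ± 0.17 (SE) with the microglia covariate and -0.09 ± 0.23 with the oligodendrocyte covariate.

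The 2 efflux transporters had fold changes of opposite sign, a difference between them that was not tested. Abca1 (chromosome 4, 53030789 to 53159988), which hands cholesterol and phospholipid to lipid-poor apolipoprotein and whose promoter is printed above, was at 123, 132 and 118 CPM in 5A, 6A and 7A (DTx-labelled). It was at 102 and 116 CPM in saline. Every DTx-labelled library lay above both saline libraries, but library 7A exceeded saline replicate 2 by little. The log2 fold change was 0.19 ± 0.14 (SE), a ratio of 1.14 with an interval of 0.904 to 1.44 (edgeR adjusted p = 0.817). The log2 value was 0.10 without saline replicate 1. It was 0.094 ± 0.20 (SE) with the microglia covariate and 0.17 ± 0.17 with the oligodendrocyte covariate.

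Abcg1 (chromosome 17, 31057694 to 31117984), which moves sterol onto particles already holding lipid, was at 119, 123 and 216 CPM in 5A, 6A and 7A (DTx-labelled). It was at 214 and 248 CPM in saline. Libraries 5A and 6A were low, and library 7A lay with the saline libraries. The log2 fold change, -0.60 ± 0.29 (SE), had the interval farthest to the negative side after Apod, -1.28 to 0.09, and the smallest unadjusted p of the members (0.0768, edgeR quasi-likelihood test). Without library 7A the log2 fold change was -0.93 (edgeR adjusted p = 0.0837). The oligodendrocyte mean log2 CPM was 9.55, 9.50 and 10.55 in the same DTx libraries, against 10.17 and 10.72 in saline. With this mean as a covariate the log2 fold change of Abcg1 was -0.23 ± 0.17 (SE), and with the microglia covariate -0.47 ± 0.42. Per exon length, the ratio of the Abca1 level to the Abcg1 level was 0.728, 0.754 and 0.385 in 5A, 6A and 7A (DTx-labelled), against 0.335 and 0.328 in saline. That ratio was higher in every DTx-labelled library, though library 7A stood much nearer to saline than to the other 2.

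Lrp1 (chromosome 10, 127538157 to 127621148), the endocytic receptor for apolipoprotein E particles and many other ligands, was at 325, 385 and 382 CPM in 5A, 6A and 7A (DTx-labelled), against 427 and 323 CPM in saline. The DTx-labelled libraries lay within the range of the saline libraries. The log2 fold change was -0.04 ± 0.19 (SE) with an interval of -0.49 to 0.41 (edgeR adjusted p = 0.969). Its sign turned when saline replicate 1 (0.17) or library 5A (0.03) was left out and when the microglia mean was a covariate (0.29). With the oligodendrocyte covariate it was -0.07.

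The liver X receptors differed in level. Nr1h2 (chromosome 7, 44549616 to 44553968), which encodes the widely expressed LXR beta, was the steadiest member, with a highest library 1.12 times its lowest. It was at 77.4, 75.3 and 83.9 CPM in 5A, 6A and 7A (DTx-labelled), against 84.0 and 82.2 CPM in saline, with library 7A between the saline values. Its log2 fold change was -0.08 ± 0.13 (SE), with an interval of -0.38 to 0.23 (edgeR adjusted p = 0.919). Nr1h3 (chromosome 2, 91184061 to 91202829), which encodes LXR alpha, prominent in liver and macrophages, was at 10.3, 10.3 and 7.51 CPM in 5A, 6A and 7A (DTx-labelled). It was at 7.70 and 7.26 CPM in saline. Libraries 5A and 6A were high, and library 7A fell between the saline libraries. Its log2 fold change was 0.33 ± 0.23 (SE, edgeR adjusted p = 0.816), from 132 to 196 counts per library. It was 0.086 ± 0.25 (SE) with the oligodendrocyte covariate and 0.25 ± 0.35 with the microglia covariate. Per exon length, Nr1h2 exceeded Nr1h3 by 5.61, 5.47 and 8.37 times in 5A, 6A and 7A (DTx-labelled), against 8.18 and 8.49 times in saline.

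Of the fatty acid binding proteins, Fabp7 spread far more between libraries than Fabp5. Fabp7 (chromosome 10, 57784923 to 57788450), the brain form made by radial glia and astrocytes, was at 357, 399.6 and 191 CPM in 5A, 6A and 7A (DTx-labelled), against 146 and 244 CPM in saline. Libraries 5A and 6A were above both saline libraries and library 7A was between them. Its log2 fold change, 0.69 ± 0.37 (SE), was the largest of the members in size, a ratio of 1.62 with an interval of 0.861 to 3.04 (edgeR adjusted p = 0.797). It was 1.11 without saline replicate 2, 0.95 without library 7A and 0.37 without saline replicate 1. With the microglia covariate it was 0.13 ± 0.46 (SE), and with the oligodendrocyte covariate 0.28 ± 0.46. Fabp5 (chromosome 3, 10012585 to 10016610), the more widely expressed epidermal form, was at 54.8, 50.4 and 59.3 CPM in 5A, 6A and 7A (DTx-labelled), against 43.2 and 64.4 CPM in saline. The DTx-labelled values lay between the saline values, and the log2 fold change was 0.03 ± 0.20 (SE, edgeR adjusted p = 0.978). Its sign turned without saline replicate 1 (-0.24), without library 7A (-0.03) and in the fit with the microglia covariate (-0.24). It was 0.34 without saline replicate 2 and 0.23 with the oligodendrocyte covariate. Per exon length, the Fabp7 level was 18.6, 22.6 and 9.20 times the Fabp5 level in 5A, 6A and 7A (DTx-labelled), against 9.66 and 10.8 times in saline. That ratio was high in libraries 5A and 6A, and in library 7A it was below both saline libraries. It rests on union exon lengths of 1250 bases for Fabp7 and 3567 bases for Fabp5. A union counts every annotated exon, so a shorter transcript would change the size of the ratio, though not its course over the libraries.

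**Figure D2:**
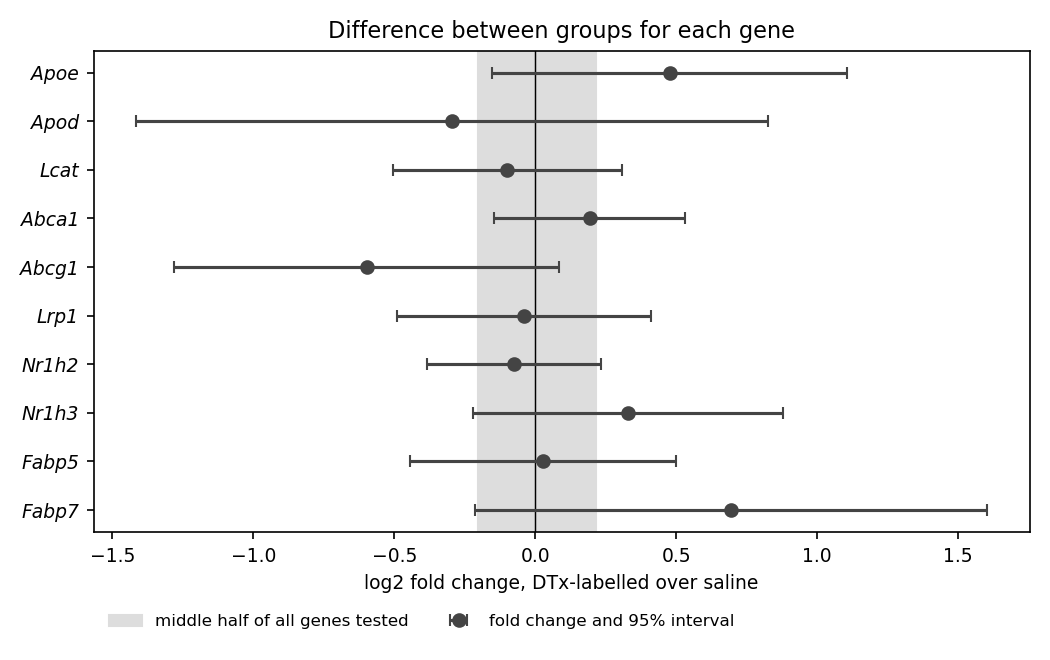
Log2 fold change of each gene, DTx-labelled over saline (horizontal axis), with its 95% interval from the edgeR quasi-likelihood fit (bars). The grey band is the interquartile range of all 15532 genes tested, -0.20 to 0.22. Every interval crosses 0, and Apod and Fabp7 have the widest ones.

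Levels of different genes were compared per kilobase of exon (RPKM computed from the scaled CPM, mean ± SD over the 5 libraries). Exon length was the union of every annotated exon, 3567 bases for Fabp5 and 3354 bases for Nr1h2. Where the transcript made is shorter than that union, a gene stands too low, so the order depends on these lengths. Apoe was highest at 7202 ± 1729, followed by Fabp7 at 214 ± 86.2 and Apod at 209.6 ± 88.3, and Lcat came next at 46.4 ± 5.81. Abcg1 was at 25.2 ± 8.11, Nr1h2 at 24.0 ± 1.19 and Lrp1 at 20.8 ± 2.5, and Fabp5 followed at 15.3 ± 2.28, Abca1 at 11.4 ± 1.06 and Nr1h3 at 3.43 ± 0.622. Of these neighbours, Fabp7 and Apod did not differ beyond their spread: Fabp7 was the higher in 2 of 5 libraries. Abcg1 and Nr1h2 also overlapped, with Abcg1 higher in 3 of 5 libraries. The ranges of Nr1h2 and Lrp1, and those of Fabp5 and Abca1, overlapped too, although the first of each pair was higher in 5 of 5 libraries. The ranges of the other neighbours did not overlap.

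The members did not follow 1 common course across the libraries. Libraries 5A and 6A stood above the other 3 for Apoe, Abca1, Nr1h3 and Fabp7, and below them for Abcg1 and Nr1h2. Library 7A, although labelled DTx, lay between the saline libraries for 5 of these 6 genes, Abca1 being the exception. This grouping was not particular to the members. Over the whole count table, chi-square per degree of freedom was 14.2 between 5A and 6A, and 60.7 and 58.4 between 7A and these libraries. Library 7A differed from saline replicate 2 by 17.7 and from saline replicate 1 by 46.6. The least alike pair was Abcg1 and Fabp7, whose centred log2 CPM differed by 0.94 (root mean square over the 5 libraries), followed by Apod and Fabp7 at 0.91. Lcat and Fabp5 were the most alike at 0.15, and both were lowest in saline replicate 1 and highest in saline replicate 2. Apoe and Apod differed by 0.72, and the ratio of their levels per exon length was 47.7, 82.1 and 23.0 in 5A, 6A and 7A (DTx-labelled), against 32.2 and 21.1 in saline.

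**Figure D3:**
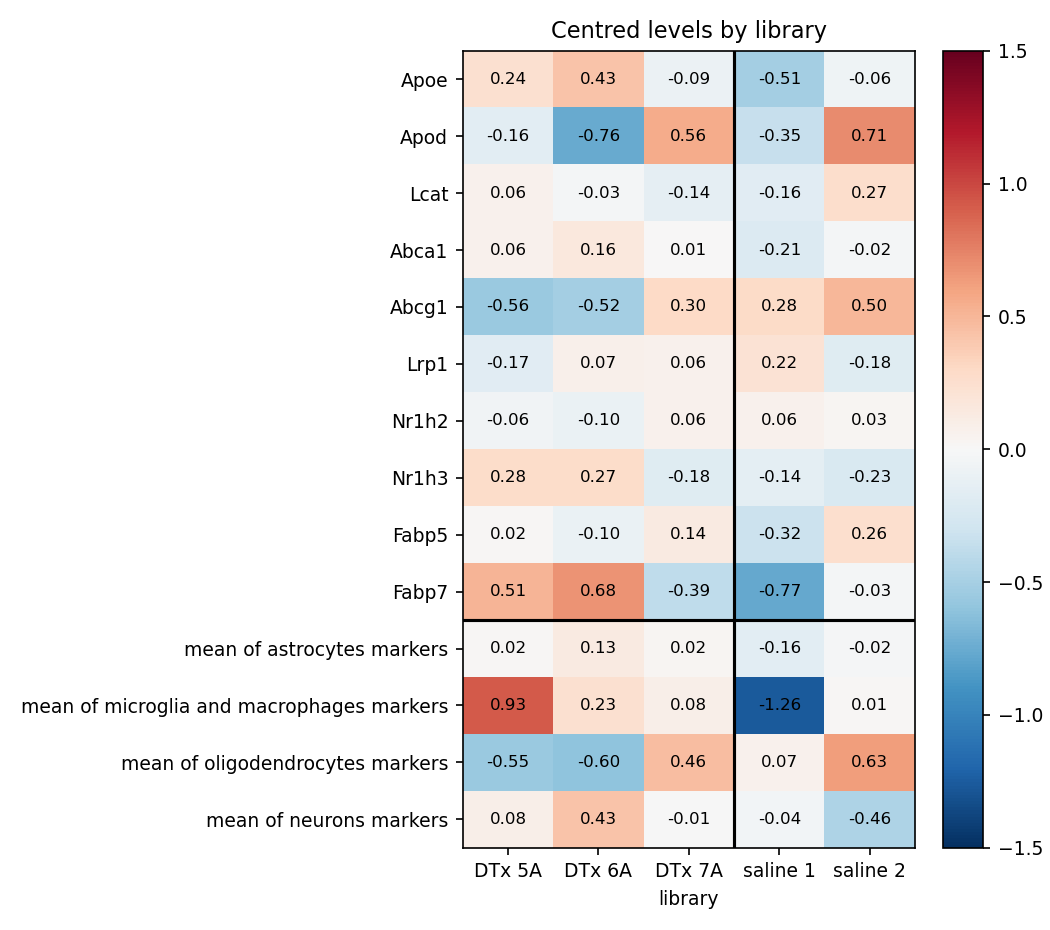
Log2 CPM of the 10 genes, and mean log2 CPM of 4 marker lists, each minus its mean over the 5 libraries (colour and printed value). Columns are libraries, DTx-labelled on the left. Abcg1 and the oligodendrocyte markers are low in DTx libraries 5A and 6A, Fabp7 is high in them, and the microglia and macrophage markers are lowest in saline replicate 1.

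Outside the members, the genes closest in pattern to the 4 most variable ones were sought among 8667 autosomal genes of at least 10 CPM, again by the root mean square difference over the 5 libraries. For Apoe these were Cst3, the gene of cystatin C, with a difference of 0.02, and Mmd2 with 0.05. Cst3 was at 6355, 6940.3 and 4912 CPM in 5A, 6A and 7A (DTx-labelled), against 3714 and 5114 CPM in saline. For Apod they were Serpind1 (0.04) and Cd59a (0.14), for Abcg1 Sema6a (0.03) and Ccp110 (0.05), and for Fabp7 Bmp7 (0.10) and Entpd1 (0.11). Sema6a was at 48.6, 48.9 and 85.3 CPM in the same DTx libraries, against 81.7 and 98.1 CPM in saline. With 5 libraries and so many genes, close profiles are easily found, and these are descriptions only.

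The rest of the pathway was described through 8 lists of related genes, 146 genes in all, of which 116 passed the low-count filter. None of the 116 passed the edgeR test after adjustment, by DESeq2 or by limma-voom, and 14 had an unadjusted p under 0.05 by edgeR, which is 12.1% against 6.28% of all genes tested. Of 18 other apolipoprotein genes 6 were tested, with a median log2 fold change of 0.37. Apoc1, carried on lipoproteins and next to Apoe on chromosome 7, was at 58.4, 52.8 and 28.6 CPM in 5A, 6A and 7A (DTx-labelled), against 11.1 and 23.6 CPM in saline. The groups did not overlap, and its log2 fold change was 1.43 ± 0.43 (SE, edgeR adjusted p = 0.789). Clu, the abundant astrocyte apolipoprotein also called apolipoprotein J, was at 3713, 4042 and 3338 CPM, against 3213 and 3524 CPM in saline (log2 fold change 0.13). Apoc3 and Apol8 had at most 1.49 CPM in any library.

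Of 18 other ABC lipid transporters 16 were tested, with a median of -0.10 and none at an unadjusted p under 0.05. Abca2, a transporter prominent in oligodendrocytes, was at 136, 150.2 and 341 CPM in 5A, 6A and 7A (DTx-labelled), against 395 and 296 CPM in saline, and so was low in the 2 libraries in which Abcg1 and the oligodendrocyte markers were low. Abca8a and Abca9 had log2 fold changes of -0.50 and 0.85, and Abcd3, a peroxisomal transporter, of 0.18. Other lipoprotein receptors had a median of -0.30 over 19 of 20 genes, 5 positive and 14 negative, where 50.3% of all genes were positive. Of these receptors, 6 lay below saline without overlap, beside 8.98% of all genes. Vldlr, the very low density lipoprotein receptor, was at 65.3, 52.3 and 84.1 CPM in the DTx-labelled libraries, against 102 and 94.6 CPM in saline (log2 fold change -0.55 ± 0.21 SE, edgeR adjusted p = 0.789). Sort1, encoding sortilin, was at 82.3, 79.5 and 119 CPM, against 158 and 123 CPM in saline, and Sorl1, its relative, at 250.3, 237 and 249.8 CPM, against 340.04 and 265 CPM in saline. Both lay below saline without overlap. Lrpap1, the chaperone of this receptor family, had a log2 fold change of 0.07, and the macrophage scavenger receptor Msr1 was at 6.49, 0.87 and 2.28 CPM, against 0.369 and 0.493 CPM in saline.

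Genes of lipoprotein remodelling and cholesterol disposal had a median of -0.29 over 15 of 20 genes, with 5 below saline without overlap and 1 above, beside 8.98% and 12.1% of all genes. Stard3, which moves sterol out of late endosomes, was at 37.8, 34.8 and 40.7 CPM in 5A, 6A and 7A (DTx-labelled), against 45.9 and 53.7 CPM in saline (log2 fold change -0.40 ± 0.14 SE, edgeR adjusted p = 0.789). Gramd1b and Cyp27a1, a sterol transfer protein gene and the sterol 27-hydroxylase gene, had log2 fold changes of -0.45 and -0.48, and the lysosomal cholesterol transporter genes Npc1 and Npc2 had -0.50 and 0.11. The other fatty acid and retinoid binding proteins went the other way, with 8 of 8 genes tested positive and a median of 0.60, where 50.3% of all genes were positive. Dbi, the acyl-CoA binding protein, was at 1427, 1369.5 and 1000.3 CPM in the DTx-labelled libraries, against 548 and 948 CPM in saline (log2 fold change 0.76 ± 0.29 SE, edgeR adjusted p = 0.789). Its groups did not overlap, with saline replicate 1 well below saline replicate 2. Fabp3, the heart form, was at 2.43, 2.80 and 1.93 CPM, against 1.15 and 1.25 CPM in saline, Crabp2 had its highest level, 3.91 CPM, in library 5A, and Acbd5 had a log2 fold change of 0.06.

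Fatty acid uptake, oxidation and PPAR genes had a median of 0.05 over 25 of 26 genes. Plin2, which coats lipid droplets, was at 41.2, 34.9 and 33.2 CPM in 5A, 6A and 7A (DTx-labelled), against 22.2 and 26.2 CPM in saline, a log2 fold change of 0.59 ± 0.16 (SE, edgeR adjusted p = 0.778) without overlap. Acsl5 and Slc27a4 had log2 fold changes of 0.51 and -0.46, and the abundant acyl-CoA synthetase genes Acsbg1 and Acsl6 had 0.09 and 0.02. Among 14 partners and coregulators of the liver X receptors the median was -0.14. Of these, 2 lay above saline without overlap and 1 below, beside 12.1% and 8.98% of all genes. Those above were the retinoid X receptor genes Rxra and Rxrg, with log2 fold changes of 0.47 and 0.75. The gene below was Ncoa3, a coactivator, with -0.59. The abundant coregulators Ncor1 and Ncoa1 had -0.14 and 0.06. The other liver X receptor target genes had a median of 0.10 over 17 of 21 genes. Of these, 13 were positive and 4 negative, where 50.3% of all genes were positive. Apoc1, given above among the apolipoproteins, was also on this list. Tspo, a mitochondrial outer membrane protein found in microglia and other glia and not a classical target, was at 18.4, 16.1 and 10.02 CPM in the DTx-labelled libraries, against 4.89 and 7.79 CPM in saline (log2 fold change 1.23 ± 0.34 SE, edgeR adjusted p = 0.778). Lpcat3, a phospholipid remodelling enzyme, had 0.18, and the desaturase genes Scd1 and Scd2 had 0.08 and 0.10. The log2 fold change of the microglia and macrophage markers was positive for 19 of 20 genes in the same libraries, beside 50.3% of all genes. Its median was 1.02, and the part of these markers in the values of Apoc1, Msr1, Tspo and Dbi was not tested.

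**Figure D4:**
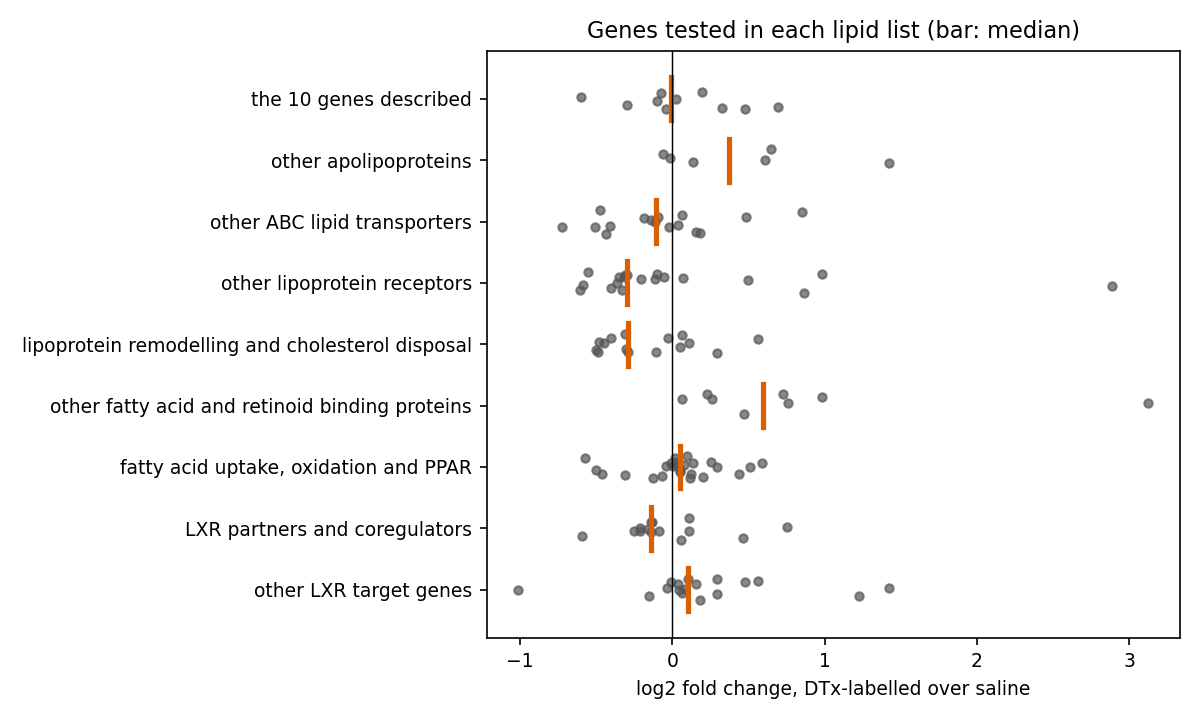
Log2 fold change, DTx-labelled over saline (horizontal axis), of each gene tested in the 10 genes described and in 8 lists of related lipid genes (rows, points spread vertically for visibility). The orange bar is the median of each row, from -0.30 for other lipoprotein receptors to 0.60 for other fatty acid and retinoid binding proteins, and no point passed the adjusted threshold.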

How the data were processed

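The deposited file holds raw counts of reads for each gene symbol, with libraries in separate columns. Per the submitters' processing notes, STAR 2.7.5c, featureCounts 2.0.1, edgeR 3.42.4, fastp 0.23.2, MultiQC 1.11 and FastQC 0.11.9 were used, with builds GRCm38 and mm10. Their settings, the annotation and the use of strand are not stated. Saline columns were matched by group word and number to replicates 1 and 2. Numbers of the DTx columns occur in no label, so these were matched to the group only, and 1 further column was not used. The design text gives 3 mice per group and the titles number the libraries within a group, but no label ties a library to a mouse, so a p-value reflects the spread between these libraries. All pairs of libraries differed by more than sampling noise (chi-square per degree of freedom at least 14.2, using genes of 20 or more counts in the pair).

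From the counts, edgeR 4.0.16 in R 4.3.3 was run with TMM scaling, filterByExpr (minimum count 10), a robust quasi-likelihood fit and Benjamini-Hochberg adjustment over 15532 genes, with a threshold of 0.05. Standard errors are the log2 fold change over the square root of F, and intervals use the fit's total degrees of freedom. Log2 CPM used a prior count of 2. Exon lengths are unions of GENCODE M21 exons, and coordinates are those of RefSeq GRCm38.p6. Alternatives were limma-voom (limma 3.58.1), DESeq2 1.42.0, other scalings and filters, marker covariates and leaving out each library.

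Members and lists were chosen with earlier results of these data known. Every member was named. In each list, genes past the threshold, the 3 with the smallest p and the 2 with the highest CPM were named, and the 3 defining markers with the highest CPM were eligible. Pattern likeness used the 2 nearest genes for each of the 4 members with the widest range.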

Additional observations from a re-analysis of the deposited data

How the results depend on the processing

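Across 13 alternatives, 0 of 130 values of the members passed the threshold, and Apoe, Abca1, Abcg1, Fabp7, Nr1h2 and Nr1h3 kept their direction in every alternative. Signs turned for members with a small or widely spread change. With the microglia covariate Lrp1 was 0.29 and Fabp5 -0.24, and with the oligodendrocyte covariate Apod was 0.37. Without saline replicate 1 Lrp1 was 0.17 and Fabp5 -0.24, without saline replicate 2 Apod was 0.33 and Lcat 0.13, without DTx library 5A Lrp1 was 0.030, and without DTx library 7A Fabp5 was -0.033. Over the libraries left out, Lrp1 ranged from -0.23 to 0.17, Fabp5 from -0.24 to 0.34, Apod from -0.73 to 0.33 and Lcat from -0.30 to 0.13. The members' median was 0.019 and 0.29 without saline replicates 1 and 2, 0.028 without 5A, 0.024 without 6A and -0.041 without 7A, 0.032 with the microglia covariate and 0.13 with the oligodendrocyte covariate. Members without overlap between groups numbered 2 with RLE and with total-count scaling, 7 without saline replicate 1, 6 without saline replicate 2 or DTx library 7A, and 1 without 5A, without 6A or with either other filter. Of all genes tested, 51.9%, 63.1% and 44.2% did not overlap without saline replicate 1, saline replicate 2 and library 7A, and 30.7% and 26.0% without 5A and 6A. The share of all genes was not computed for the other scalings and filters. Under the other filters the members' count was made with the main scaling, so it could not change. The count was not run for the other tests and covariates. Of all genes, 9 passed with no low-count filter, 111 with DESeq2, 3 with the microglia covariate and 5 to 13 with a library left out (13 without DTx library 7A). With 1 saline library left, that library is assumed to vary like the DTx-labelled ones. The cause of these shifts was not tested. No paired analysis was possible because the DTx columns carry no replicate number of the labels. With 3 libraries against 2, the intervals leave room for changes such as a 2.15-fold higher Apoe or a 3.04-fold higher Fabp7.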
